A study of Mus musculus with 6 samples.

Results

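The mouse Fc gamma receptor genes Fcgr1, Fcgr3, Fcgr4 and Fcgr2b, the signalling chain gene Fcer1g and the kinase gene Syk were followed in RNA from Cd11b-enriched non-myocyte cells of the heart. These 6 genes were chosen by name, out of 55487 gene identifiers in the count tables, and each matched a single Ensembl identifier. The KO group held 3 pools labelled EGFR -/- (myeloid-specific), also called Egfr mKO, and the WT group held 3 pools labelled Egfr f/f, with WT as their genotype. All were of the C57BL/6 strain. Each library came from 1 pool of 5 hearts, or of 6 hearts in KO pool 3, so the pool was the replicate and p-values measure the spread between pools. Neither the driver of the deletion nor the age or sex of the animals is named in the labels. Magnetic beads against Cd11b, the integrin encoded by Itgam, concentrate myeloid cells without making them pure, and the share of each cell type is unknown.

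Fc gamma receptors bind the constant part of immunoglobulin G and let phagocytes take up antibody-coated particles. In the mouse, Fcgr1, Fcgr3 and Fcgr4 encode activating receptors that depend on the common gamma chain encoded by Fcer1g. That chain carries an immunoreceptor tyrosine-based activation motif (ITAM), which is phosphorylated by Src family kinases and then binds the tandem SH2 domains of Syk. Fcgr2b encodes the inhibitory receptor, whose own tail carries an immunoreceptor tyrosine-based inhibition motif (ITIM) that recruits the inositol phosphatase encoded by Inpp5d. Tissue macrophages carry activating and inhibitory receptors together, and B cells carry Fcgr2b alone of the 4 receptors.

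The coding stretches of the Fcer1g ITAM and the Fcgr2b ITIM are shown first, because these motifs set activating apart from inhibitory receptors. They are transcript sequences of GENCODE M21, read 5′ to 3′ on the coding strand. Capitals mark the tyrosine codons and the leucine codons that lie 3 codons after them.
Fcer1g, codons 63 to 81: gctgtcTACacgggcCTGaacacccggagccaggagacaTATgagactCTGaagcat
Fcgr2b, codons 315 to 326: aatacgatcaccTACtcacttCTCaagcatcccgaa
The Fcer1g stretch holds 2 such tyrosine units with 7 codons between them, the only pair at ITAM spacing among its 3 units, and the coding sequence of Fcer1g spans 86 codons in all. No such pair was found in the coding sequence of Fcgr1, Fcgr2b, Fcgr3 or Fcgr4. A single unit stood at codon 319 of Fcgr2b, in the stretch printed, and Fcgr1 also had a single unit with this spacing, while Fcgr3 and Fcgr4 had 0.

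Fcgr2b, Fcgr4, Fcgr3 and Fcer1g lie close together on chromosome 1, whereas Fcgr1 lies on chromosome 3 and Syk on chromosome 13 (GRCm38, GENCODE M21). Fcgr2b (ENSMUSG00000026656) spans 170958617 to 170976547 on the minus strand. Fcgr4 (ENSMUSG00000059089) spans 171018920 to 171029761 on the plus strand. Fcgr3 (ENSMUSG00000059498) spans 171051174 to 171064935 and Fcer1g (ENSMUSG00000058715) spans 171229572 to 171234365, both on the minus strand. Fcgr1 (ENSMUSG00000015947) spans 96282909 to 96293969 on the minus strand of chromosome 3. Syk (ENSMUSG00000021457) spans 52583173 to 52648792 on the plus strand of chromosome 13. Exons of Fcgr2b share 155 bases with the antisense gene Gm38204, and the strand setting of the counting is unknown, so reads there may not be separable.

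Fcgr2b and Fcgr3 have closely related sequences, and the count tables keep reads with several alignments apart from genes. The longest run shared by their principal transcripts was 129 bases. Of all 50-base stretches of Fcgr3, 12.8% also occurred in Fcgr2b, and of all 100-base stretches 3.53% did. Of the 50-base stretches of Fcgr2b, 8.6% occurred in Fcgr3 or in other genes. No stretch of either length in Fcgr1, Fcgr4, Fcer1g or Syk occurred in another gene. The levels of Fcgr3 and Fcgr2b may therefore be undercounted, by an amount that depends on the read length, which is not given.

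Promoter sequences are shown because the macrophage factor PU.1, encoded by Spi1, is known to act at Fc gamma receptor promoters. The search covered 250 bases before to 50 bases after each annotated start (RefSeq, GRCm38.p6), on both strands, for the PU.1 core GAGGAA, which reads as TTCCTC on the opposite strand, and for the interferon-gamma activated site, spelled TTCNNNGAA. Capitals mark the matches.
Fcgr1, chr3:96294000-96294093, minus strand: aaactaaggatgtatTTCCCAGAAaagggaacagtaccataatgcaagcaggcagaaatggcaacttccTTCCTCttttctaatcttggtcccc
Fcgr3, chr1:171059385-171059424, minus strand: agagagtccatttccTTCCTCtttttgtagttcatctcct
Fcgr4, chr1:171018889-171018928, plus strand: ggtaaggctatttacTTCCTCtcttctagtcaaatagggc
Syk, second promoter, chr13:52596858-52596897, plus strand: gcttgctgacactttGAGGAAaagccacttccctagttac
The PU.1 core was present in each of the 3 activating receptor promoters and in 1 of 2 Syk promoters. The windows of Fcgr3, Fcgr2b and Syk lie wholly inside the gene spans given above, so sequence before the outer gene ends was not searched for these genes. The core was not in the windows of Fcgr2b or Fcer1g. Of 32851 promoter windows, 28.3% held this core. The interferon-gamma site occurred in Fcgr1 only among these genes, and in 8.3% of all windows. A match of letters does not show that a factor binds there.

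The 6 libraries held 17780707 to 27485129 reads in genes, and each of the 6 genes was counted at least 508 times in every library. The deletion was visible in the targeted gene: Egfr was at 17.3 ± 1.29 CPM (counts scaled to library size) in KO pools and 47.5 ± 6.29 CPM in WT pools (SD, n = 3 each; log2 fold change -1.46, edgeR adjusted p = 0.0449). Lyz2, a lysozyme gene of myeloid cells, was at 18.6 ± 1.06 CPM in KO pools and 5034 ± 1449 CPM in WT pools (log2 fold change -8.08, edgeR adjusted p = 0.000178). KO and WT pools thus differed in Lyz2 as well as in Egfr, and every comparison here carries both differences. Itgam itself had 149 ± 28.1 CPM in KO pools and 104 ± 31.6 CPM in WT pools (log2 fold change 0.51, edgeR adjusted p = 0.341). WT pool 1 stood apart from the other WT pools. Its chi-square distance over all genes, divided by the degrees of freedom, was 69.8 and 76.5 to those WT pools and 37.7 to 53.0 to KO pools. Its macrophage marker genes summed to 16850 CPM, where the KO pools had 16650 to 17380 CPM and WT pools 2 and 3 had 9224 and 11430 CPM. Y-linked genes were expressed in KO pool 1 and WT pool 1 alone, with summed levels of 234 and 240 CPM and under 1 CPM in each other pool. The results on the 6 genes are therefore given with and without WT pool 1.

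All 6 genes had higher mean levels in KO pools, by 1.26-fold for Fcgr2b to 1.5-fold for Fcgr1, but none passed the test. A log2 fold change above 0, as in all 6, was found for 50.8% of all genes. The median log2 fold change, KO over WT, was 0.45 over the 6 genes, against 0.01 over all 15707 genes tested. With edgeR and Benjamini-Hochberg adjustment over all genes, 0 of the 6 were called, where 0.0127% of all genes were called. At an unadjusted p under 0.05 there was 1 of the 6, Fcgr1, with a background of 4.77% of genes on the higher side. DESeq2, which called 5% of all genes, and limma-voom, which called 0.00637%, also called 0 of the 6. So did edgeR without its filter (2.7% of all genes called), with a minimum mean CPM of 5 (0.0181%), with a replicate block or a Y-linked covariate (0.0191% each) and with a covariate for vessel wall and fibroblast markers (0.00637%).

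Among the activating receptors, Fcgr1 encodes the high-affinity receptor, also known as CD64, which marks tissue macrophages. Its level was 133, 130 and 140 CPM in KO pools 1, 2 and 3, against 115, 65.5 and 87.7 CPM in WT pools 1, 2 and 3. Every KO pool lay above every WT pool, which held for 9.59% of all genes and for no other gene of the 6. This gave a log2 fold change of 0.59, with SE 0.19 (edgeR adjusted p = 0.237).

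Fcgr3 encodes the low-affinity activating receptor of macrophages, neutrophils and NK cells. It had 675, 616 and 643 CPM in KO pools, against 656, 364 and 445 CPM in WT pools 1, 2 and 3. WT pool 1 lay among the KO pools, and the other WT pools lay below them. Fcgr3 thus had a log2 fold change of 0.40, with SE 0.22 (edgeR adjusted p = 0.428).

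Fcgr4 encodes a receptor for IgG2a, IgG2b and IgG2c found on monocytes, macrophages and neutrophils of the mouse. It had 75.6, 51.7 and 47.9 CPM in KO pools, against 59.8, 26.5 and 33.3 CPM in WT pools. KO pool 1 was the highest and WT pool 1 the second highest, so the groups overlapped. Its log2 fold change of 0.55 had the largest error of the 6 genes, with SE 0.31 (edgeR adjusted p = 0.44). Neutrophil markers were also highest in these libraries, with summed levels of 3053, 838 and 872 CPM in KO pools 1, 2 and 3, against 2491, 1239 and 663 CPM in WT pools 1, 2 and 3. The 11 neutrophil genes had a median log2 fold change of 0.16, with 7 above 0, and their part in the Fcgr4 levels was not tested. Markers of nonclassical monocytes, which carry Fcgr4, summed to 1584 to 2360 CPM in KO pools and 1838 to 2059 CPM in WT pools. Most of this sum came from Nr4a1 alone, with 1095 to 1798 CPM in KO pools and 1232 to 1665 CPM in WT pools. NK cell markers were low, at 8.14 to 20.4 CPM in KO pools and 16.95 to 27.16 CPM in WT pools.

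The inhibitory receptor gene Fcgr2b had 502, 483 and 426 CPM in KO pools, against 503, 292 and 324 CPM in WT pools. WT pool 1 had the highest value of all 6 pools, and WT pools 2 and 3 the lowest. At 0.33, with SE 0.22, its log2 fold change was the smallest of the 6 genes (edgeR adjusted p = 0.502). B cell markers summed to 485, 792 and 513 CPM in KO pools and to 460, 411 and 356 CPM in WT pools. KO pool 2, highest in B cell markers, was not highest in Fcgr2b, and the part of B cells in its level was not tested.

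Fcer1g, the chain that carries the ITAM shown above, had 358, 331 and 371 CPM in KO pools, against 353, 195 and 233 CPM in WT pools. WT pool 1 again lay within the range of the KO pools. The log2 fold change of Fcer1g was 0.44, with SE 0.22 (edgeR adjusted p = 0.378). Syk, the kinase that docks on the phosphorylated chain and also serves B cell and other immune receptors, had 895, 697 and 650 CPM in KO pools, against 680, 486 and 463 CPM in WT pools. KO pool 1 was highest, and WT pool 1 lay above KO pool 3. The log2 fold change of Syk was 0.46, with SE 0.20 (edgeR adjusted p = 0.34).

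**Figure D1:**
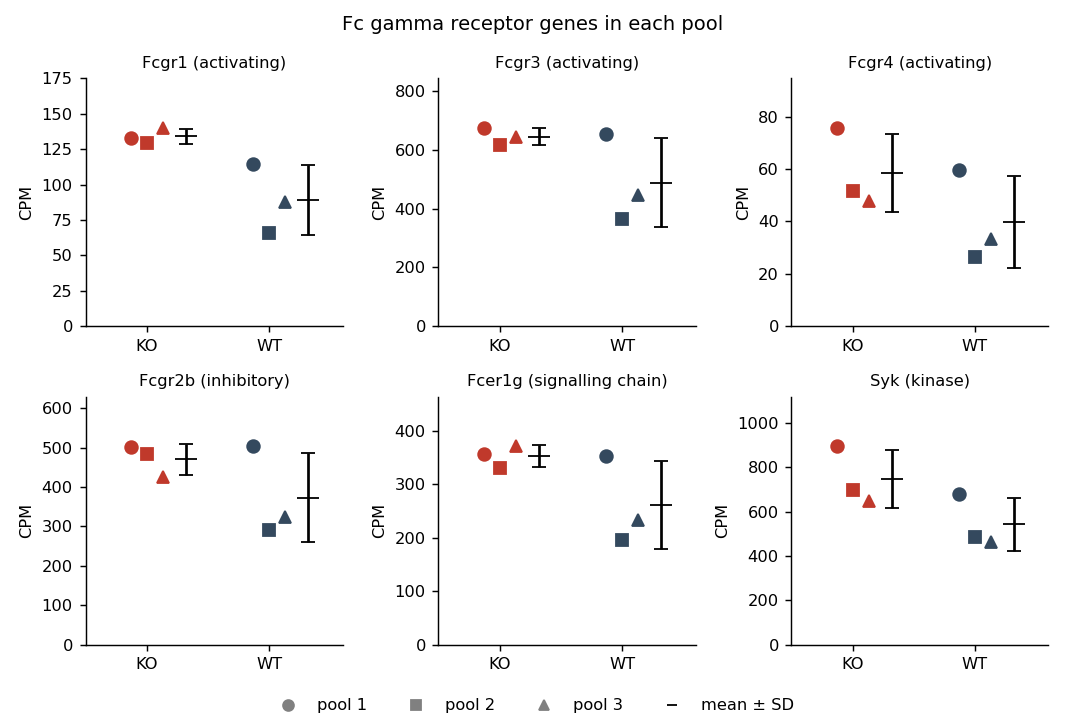
CPM (vertical axis, from 0) of the 6 genes in KO and WT pools, with a symbol for each pool and a bar for mean ± SD (n = 3). WT pool 1 is the highest WT pool in each panel, and WT pools 2 and 3 lie below every KO pool.

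Without WT pool 1 the same test called 5 of the 6 genes higher in KO, where 2.33% of all genes were called higher. In that fit of 3 KO against 2 WT pools, log2 fold changes were 0.81 for Fcgr1, 0.68 for Fcgr3, 0.97 for Fcgr4, 0.62 for Fcgr2b and 0.72 for Fcer1g (edgeR adjusted p = 0.0234, 0.0351, 0.0432, 0.039 and 0.0252 in that order). Syk had 0.66 and was not called (edgeR adjusted p = 0.061). WT pool 1 was the highest WT pool for each of the 6 genes, and leaving it out raised every log2 fold change. These calls are therefore not separate support for a difference. Of the pools that remained, KO pool 1 alone expressed Y-linked genes. All 6 genes had every KO pool above WT pools 2 and 3, which held for 21.1% of all genes. Leaving out any other library called 0 of the 6, where 0.0062%, 0.00618% and 0.0124% of all genes were called without KO pools 1, 2 and 3, and 0.00625% and 0.00618% without WT pools 2 and 3. Without WT pool 2 the log2 fold changes were smaller, at 0.40 for Fcgr1, 0.22 for Fcgr3, 0.32 for Fcgr4, 0.18 for Fcgr2b, 0.26 for Fcer1g and 0.38 for Syk. Without KO pool 1 Fcgr4 had 0.32 and Syk 0.31.

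Macrophage marker genes had differences of a like size. All 17 macrophage markers had log2 fold changes above 0, with a median of 0.43, and edgeR and DESeq2 each called 0 of them with all 6 libraries. In KO pools, more macrophages and more RNA of these genes per macrophage cannot be told apart in bulk samples. Log2 fold changes were below 0 in 12 of 12 endothelial, 10 of 10 mural and 11 of 11 fibroblast markers. With all 6 libraries edgeR called 0 of these, whereas DESeq2 called 12 endothelial, 8 mural and 6 fibroblast genes lower, where it called 3.97% of all genes lower. Without WT pool 1, edgeR called 9 of the 17 macrophage markers higher, and 10 endothelial, 8 mural and 11 fibroblast markers lower, where 2.33% of all genes were called higher and 5.97% lower. Endothelial genes summed to 1376 to 1773 CPM in KO pools and 2480 to 4052 CPM in WT pools, and fibroblast genes to 1691 to 2506 CPM in KO pools and 2252 to 7061 CPM in WT pools. Mural genes summed to 1512 to 2257 CPM in KO pools and 2439 to 4007 CPM in WT pools. With these vessel wall and fibroblast levels as a covariate, the log2 fold change was 0.26 for Fcgr1 and between -0.23 and -0.03 for the other 5 genes (edgeR adjusted p = 1 for each).

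When library sizes were set to the reads of the macrophage markers, log2 fold changes of the 6 genes lay between -0.11 and 0.15. They were 0.14 for Fcgr1, -0.04 for Fcgr3, 0.15 for Fcgr4, -0.11 for Fcgr2b, -0.003 for Fcer1g and -0.01 for Syk, with standard errors of 0.21 to 0.29 and edgeR adjusted p-values of 0.662 to 0.992. On this scale the median of all genes was -0.52, 9.16% of all genes were called and 0 of the 6 were. Per 1000 macrophage marker reads, Fcgr3 had 37.0 to 40.1 reads in KO pools and 38.9 to 39.4 reads in WT pools. Fcer1g had 19.9 to 21.4 in KO pools and 20.4 to 21.2 in WT pools. Fcgr1 had 7.79 to 8.05 in KO pools and 6.81 to 7.68 in WT pools. How many of all genes separate in this way on this scale was not counted. Syk varied more, with 37.4 to 53.2 in KO pools and 40.4 to 52.7 in WT pools, as did Fcgr4 with 2.76 to 4.49 in KO pools and 2.87 to 3.55 in WT pools. Fcgr2b had 24.5 to 29.8 in KO pools and 28.4 to 31.6 in WT pools, which overlapped.

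**Figure D2:**
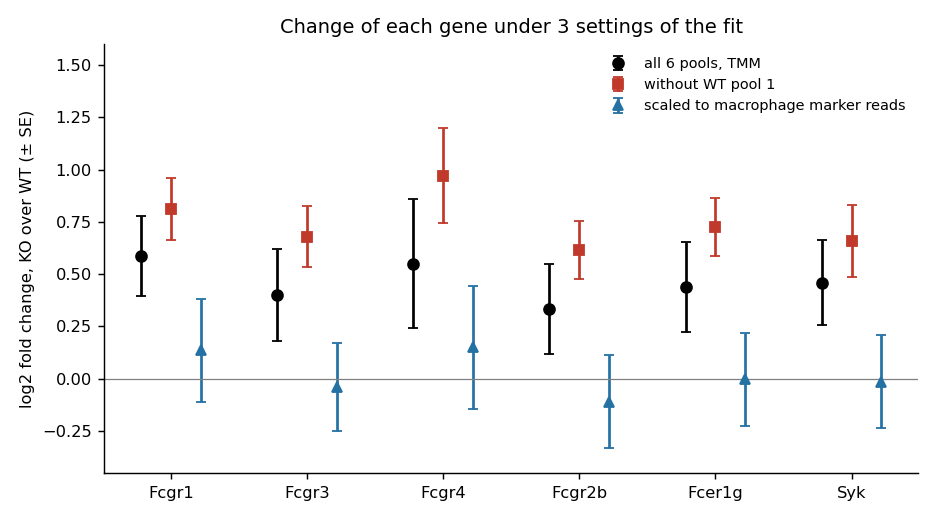
Log2 fold change, KO over WT, with its SE (vertical axis) of each gene with all 6 pools, without WT pool 1, and with library sizes set to macrophage marker reads. Values without WT pool 1 range from 0.62 to 0.97, and values scaled to macrophage markers lie around 0.

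The genes most like each of the 6 were found by the root mean square difference of log2 CPM profiles over the 6 pools, among 9244 genes with a given name and a mean of at least 10 CPM. For Fcgr3 the closest was Csf1r, the receptor for the macrophage growth factor CSF1, at 0.0099, followed by Adgre1 (F4/80, 0.035) and Kcnk13 (0.037). Fcgr3 was at 21.1% to 21.2% of the Csf1r level in KO pools and 20.98% to 21.46% in WT pools. These narrow ranges follow from the choice of Csf1r as the closest profile in the same pools. Fcer1g was closest to Kcnk13 (0.032), Adgre1 (0.032) and Lst1 (0.033). Fcgr1 was closest to the complement genes C1qa (0.059) and C1qc (0.065) and to the lysosomal enzyme gene Hexa (0.068). Fcgr2b was closest to Hacd4 (0.047), Vsir (0.048) and Nrros (0.052), and Syk to Snx20 (0.041), Rgs1 (0.046) and Lcp1 (0.048). Fcgr4 had no such close neighbour, with Pilra at 0.117, Tcn2 at 0.167 and Tyrobp at 0.169. Among the 6 genes themselves, Fcgr3 and Fcer1g were nearest (0.045) and Fcgr1 and Fcgr4 farthest apart (0.256).

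**Figure D3:**
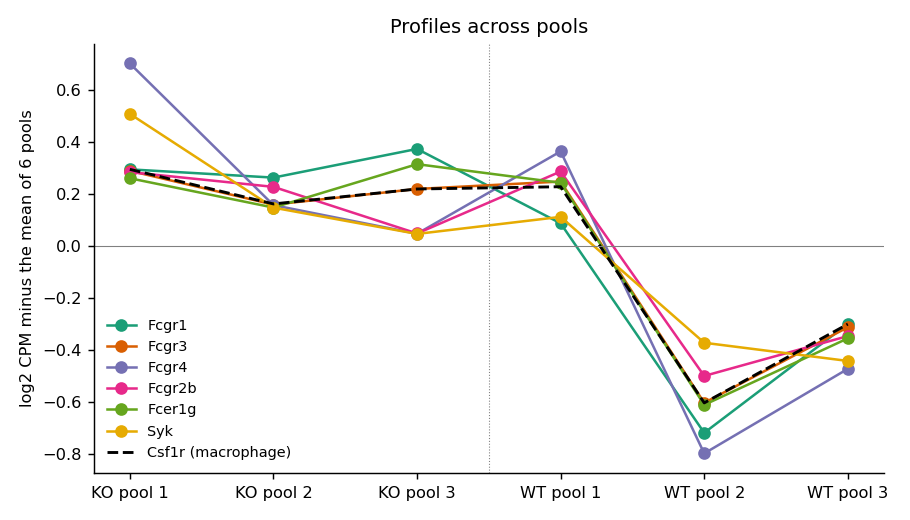
Log2 CPM minus the mean over 6 pools (vertical axis) for the 6 genes and for Csf1r (dashed), by pool; lines only join the values of a gene. Fcgr3 overlies Csf1r, the gene found as its closest profile in these pools, and Fcgr4 and Syk stand apart in KO pool 1.

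Activating receptors were set against the inhibitory receptor within each pool, as log2 ratios of reads per kilobase, which do not depend on library scaling. The log2 ratio of Fcgr1 to Fcgr2b was -0.76, -0.73 and -0.44 in KO pools, against -0.97, -0.99 and -0.73 in WT pools. The means were -0.65 ± 0.17 in KO and -0.90 ± 0.15 in WT (SD, n = 3 each), a difference of 0.25 with an exact permutation p = 0.3 (two-sided). KO pools 1 and 2 lay just below WT pool 3, so the groups overlapped.

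For Fcgr3 to Fcgr2b the log2 ratio was 2.16, 2.09 and 2.33 in KO pools, against 2.12, 2.06 and 2.19 in WT pools. The difference of 0.07 was smaller than the SD of 0.12 among KO pools (exact permutation p = 0.5). For Fcgr4 to Fcgr2b it was -0.53, -1.02 and -0.95 in KO pools, against -0.87, -1.26 and -1.08 in WT pools. That difference of 0.24 compares with SDs of 0.27 in KO and 0.19 in WT (exact permutation p = 0.4). Adjusted over the 3 ratios, p was 0.5 for each, and with 3 against 3 pools the smallest p that can be reached is 0.1. Without KO pool 1 the Fcgr4 difference was 0.09, without KO pool 3 the Fcgr1 difference was 0.15 and the Fcgr3 difference was 0.0043, and without WT pool 2 the Fcgr4 difference was 0.14 and the Fcgr3 difference 0.04. Without KO pool 2 the Fcgr3 difference was 0.12. Without WT pool 1 the differences were 0.21 for Fcgr1, 0.07 for Fcgr3 and 0.34 for Fcgr4 (exact permutation p = 0.6, 0.6 and 0.2 in that order), where 3 against 2 pools cannot give a p below 0.2. A shift in the balance of activating and inhibitory receptors was not detectable with these pools, which does not show that the balance was equal.

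A fit over all genes with library sizes set to Fcgr2b reads, added after these values were seen, called 6.26% of all genes and 0 of the 3, with a median of all genes of -0.40. Relative to Fcgr2b, the log2 fold change was 0.25 for Fcgr1 (edgeR adjusted p = 0.549), 0.07 for Fcgr3 (0.83) and 0.24 for Fcgr4 (0.594). Per kilobase, Fcgr2b made up 14.8%, 15.7% and 13.7% of the 4 receptors in KO pools, against 15.6%, 16.5% and 15.04% in WT pools. Fcgr3 made up 66.2% to 69.1% in KO pools and 67.9% to 68.8% in WT pools. These shares divide by all exons, and with the shortest principal transcripts Fcgr2b made up 32.2% to 35.8% in KO pools and 34.5% to 36.9% in WT pools. Fcer1g stood at 0.82, 0.85 and 0.92 reads per kilobase for each read per kilobase of the 3 activating receptors in KO pools, against 0.86, 0.87 and 0.84 in WT pools. These ranges overlapped.

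**Figure D4:**
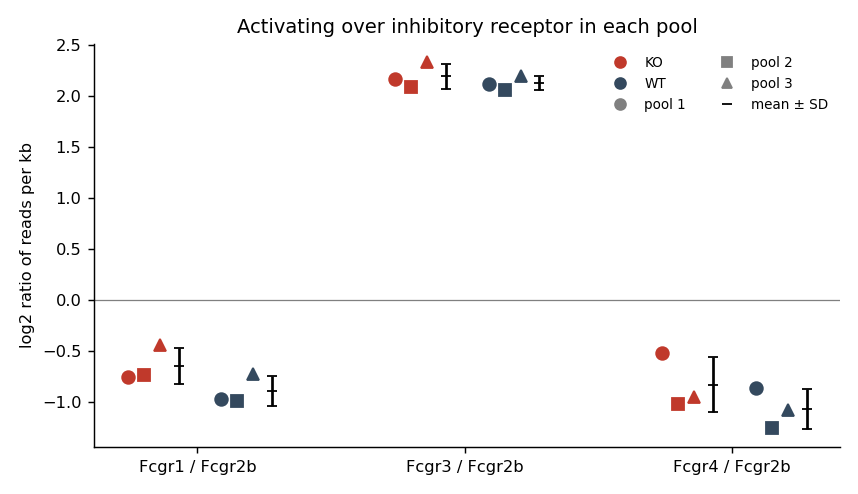
Log2 ratio of reads per kilobase (vertical axis) of Fcgr1, Fcgr3 and Fcgr4 to Fcgr2b in each KO and WT pool, with mean ± SD (n = 3). KO and WT pools overlap in all 3 ratios.

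Levels could be ordered between genes only per length. Divided by the length of all exons, Fcer1g had the highest level, with 404 ± 23.6 CPM per kilobase in KO pools and 298 ± 94.2 in WT pools (SD, n = 3 each), and Fcgr3 followed with 371 ± 16.8 in KO and 281 ± 86.8 in WT. Fcer1g was above Fcgr3 in all 6 pools, while the ranges of both over pools overlapped. Fcgr2b had 81.2 ± 6.79 in KO and 64.4 ± 19.6 in WT, and Syk 79.8 ± 13.9 in KO and 58.0 ± 12.7 in WT, which could not be told apart. Fcgr1 had 51.8 ± 2.05 in KO and 34.5 ± 9.53 in WT, and Fcgr4 46.5 ± 12.0 in KO and 31.7 ± 14.0 in WT, which also overlapped. The level of Fcgr2b depends on the length used. With its shorter principal transcript of 1578 bases, in place of 5790 bases of all exons, it was 298 ± 24.9 CPM per kilobase in KO pools and 236 ± 72.0 in WT pools. Its mean then still lay between those of Fcgr3 and Syk. With the longest principal transcripts Fcgr2b had 133 ± 11.1 in KO and 105 ± 32.1 in WT. Syk then had 139 ± 24.2 in KO and 101 ± 22.2 in WT, so that the order of these means differed between KO and WT. The length does not change any difference between KO and WT.

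Other genes of the pathway were read from 8 lists, and 0 of their tested members passed in edgeR with all 6 libraries. At an unadjusted p under 0.05, where 4.77% of all genes were higher and 10.6% lower, 4 of 7 immunoglobulin constant genes, 2 of 10 other Fc receptor genes and 3 of 16 other ITAM genes were higher in KO and 0 lower. So were 5 of 26 Syk effectors with 2 lower, 0 of 9 Src family genes with 1 lower, 4 of 10 inhibitory phosphatases and adaptors, 4 of 16 ITIM receptors and 2 of 13 regulators, with 0 lower in the last 3 lists. Without WT pool 1, adjusted over all genes, the lists had 1 to 7 genes called higher each, where 2.33% of all genes were called higher, and 2 of 26 Syk effectors and 1 of 9 Src family genes were called lower, where 5.97% of all genes were. Of 8 immunoglobulin heavy chain constant genes 7 were tested, with a median log2 fold change of 0.69. In 4 of them every KO pool lay above every WT pool, which held for 9.59% of all genes. Igha, the constant gene of IgA, had 525 ± 215 CPM in KO and 49.4 ± 34.7 CPM in WT (SD, n = 3 each; log2 fold change 3.41, edgeR adjusted p = 0.148). Without WT pool 1 Igha was called higher (edgeR adjusted p = 0.0179), and DESeq2 called 3 of the 7 higher with all libraries, where it called 1.03% of all genes higher. Ighg2b, which encodes an IgG subclass bound by Fcgr4, had 18.5 ± 9.29 CPM in KO and 5.29 ± 2.42 CPM in WT (1.82). Ighg2c had 29.0, 7.03 and 7.10 CPM in KO pools, against 1.31, 6.20 and 6.10 CPM in WT pools (1.67), with KO pool 1 far above the others and WT pool 1 the lowest. The other IgG genes tested had values below 0, with -0.58 for Ighg1 and -0.20 for Ighg3, so that the 4 IgG genes did not share a direction. IgA and IgD are not ligands of the Fc gamma receptors. Ighd, the IgD gene of naive B cells, had 41.0 ± 6.75 CPM in KO and 25.5 ± 5.47 CPM in WT (0.69). Ighe was at 0 in every library. In these pools 8 of 9 B cell markers also had log2 fold changes above 0, with a median of 0.63.

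Among 10 tested genes of other Fc receptors, all 10 had log2 fold changes above 0, with a median of 0.40. Those with the smallest p-values were Fcer2a, the low-affinity IgE receptor of B cells (0.75), Fcmr, the IgM receptor (0.52), and the B cell genes Fcrla (0.39) and Fcrl1 (0.43). Of 16 other ITAM adaptors and receptors, 13 were above 0, with a median of 0.38. They were led by Trem2, a lipid-sensing receptor (0.50), Siglech of plasmacytoid dendritic cells (0.66), Clec5a (0.41) and the beta-glucan receptor gene Clec7a (0.51).

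The Src family kinases that phosphorylate the ITAM, with their regulators, had a median of 0.15 over 9 genes, 8 of them above 0. Fyn had -0.35, the inhibitory kinase gene Csk 0.33, Lyn 0.26 and the phosphatase gene Ptprc (CD45) 0.27. Of 26 effectors downstream of Syk 19 were above 0, with a median of 0.26. The kinase genes Tec and Prkcd had 0.67 and 0.47. The phospholipase gene Plcg1 had -0.72 and the calcium channel gene Itpr1 -0.49, with every KO pool below every WT pool in both, as in 10.1% of all genes. Both were called lower without WT pool 1, Plcg1 at -0.92 and Itpr1 at -0.63 (edgeR adjusted p = 0.015 and 0.0209). Lower values of these genes went with lower vessel wall and fibroblast markers in the same KO pools, and the part of those cells was not tested.

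Genes that restrain the pathway followed next. Of 10 inhibitory phosphatases and adaptors 8 were above 0, with a median of 0.26. The adaptor genes Dok1 (0.51), Dok2 (0.59) and Dok3 (0.41) and the phosphatase gene Ptpn6 (SHP-1, 0.50) had the smallest p-values. Inpp5d, which encodes the phosphatase recruited by the Fcgr2b ITIM, had 355 ± 20.6 CPM in KO and 302 ± 73.2 CPM in WT (0.23, edgeR adjusted p = 0.582). All 16 tested ITIM receptors other than Fcgr2b were above 0, with a median of 0.37. They were led by Clec12a (0.54), the B cell receptor gene Cd22 (0.56), the macrophage sialoadhesin gene Siglec1 (0.49) and Cd72 (0.41). Of these 16 receptors, 7 were called higher and 0 lower without WT pool 1, where 2.33% of all genes were called higher and 5.97% lower.

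Of 13 tested cytokine and transcription regulators 12 were above 0, with a median of 0.21. Spi1, which encodes PU.1, had 296 ± 25.9 CPM in KO and 219 ± 62.8 CPM in WT (log2 fold change 0.435, edgeR adjusted p = 0.359), and without WT pool 1 it was called higher (0.70, edgeR adjusted p = 0.0251). Stat6 had 0.32, the interleukin 10 receptor gene Il10ra 0.43 and the interferon-gamma receptor gene Ifngr2 0.35. Ifng itself, whose product is known to raise Fcgr1 and Fcgr4, was below 1 CPM in every library, at 0.15 to 0.43 CPM in KO and 0 to 0.63 CPM in WT.

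**Figure D5:**
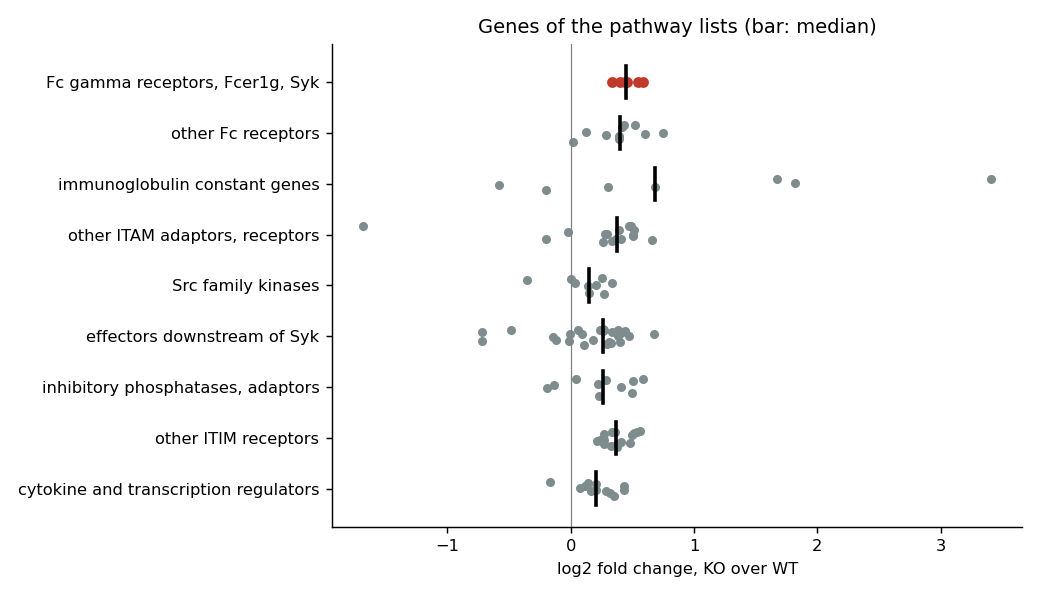
Log2 fold change, KO over WT (horizontal axis), of each tested gene in the 6 Fc gamma receptor genes (top row) and in 8 lists of the pathway, with the median as a bar. The 6 genes lie between 0.33 and 0.59, and list medians lie between 0.15 and 0.69.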

How the data were processed

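The deposited values are whole-number read counts per Ensembl gene and library, not normalized. Per the submitters' processing notes, STAR and HTSeq were used, with DESeq2 and build GRCm38 also listed and no version; the annotation release and strand setting are unknown here. Per the labels' protocols, a directional kit (NEBNext Ultra II) was used on RNA from RNeasy columns. Library sizes and tests did not include the 5 counters that name no gene; reads outside genes made up 5.90% to 8.62% of counted reads, ambiguous reads 1.49% to 1.72% and reads with several alignments 7.58% to 8.67%.

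KO was compared with WT over 15707 genes (filterByExpr, minimum count 10) by edgeR 4.0.16 in R 4.3.3, with TMM scaling and the quasi-likelihood F test, two-sided, adjusted by Benjamini-Hochberg at 0.05. CPM are TMM-scaled; log2 CPM profiles used a pseudocount of 0.5. Gene names matched 55141 of 55487 identifiers, and lengths and positions are from GENCODE M21. DESeq2 1.42.0 and limma 3.58.1 (voom) were alternatives, with other scalings, filters, covariates, a replicate block and each library left out. In a test on simulated data of the KO and WT pools (15424 genes), the fit found 63 of the 100 genes with a 2-fold change and 97 of the 100 with a 4-fold change. None found had its sign turned, and 10 genes without a change were also called.

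The 6 genes and the lists were chosen with earlier results of these data known. List genes are named as the up to 4 with the smallest p-values at a mean CPM of at least 1; Inpp5d and Ifng were named after their values were seen.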

Additional observations from a re-analysis of the deposited data

How the results depend on the processing

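Over all genes, 2 were called in the comparison as reported, Lyz2 and Egfr. DESeq2 called 785, edgeR without its filter 782, limma-voom 1 and edgeR with a covariate for vessel wall and fibroblast markers 1. Leaving out each library gave 1 to 1338 calls, with 1338 without WT pool 1. Of the 6 Fc gamma receptor genes, 0 to 5 were called on leaving out a library, with 5 without WT pool 1 and 0 without each of the others; 0 were called under any other setting. All 6 log2 fold changes stayed above 0 in each of 17 settings, the reported one included, of scaling, filter, test, block, Y-linked covariate and left-out library. With the vessel wall and fibroblast covariate, they turned to -0.23 for Fcgr2b, -0.074 for Fcgr3, -0.18 for Fcgr4, -0.057 for Fcer1g and -0.032 for Syk, while Fcgr1 had 0.26 (edgeR adjusted p = 1 for each). That covariate did not overlap between KO and WT pools, so the fit separates it poorly from genotype, and the cause was not tested. With macrophage marker scaling, Fcgr2b turned to -0.11, Fcgr3 to -0.040, Fcer1g to -0.003 and Syk to -0.014. Correlations of same-numbered deviations were 0.188, -0.172 and 0.034, and those of differently numbered pools ran from -0.234 to 0.199. KO pool 1 and WT pool 1 alone expressed Y-linked genes, and whether the replicate numbers pair the pools is unknown. With the replicate block 3 genes were called over all genes and 0 of the 6. For the ratios, the mean of same-numbered differences equals the difference of group means by arithmetic. Only the test differed there (exact sign-flip p = 0.25, the smallest that can be reached). Leaving out each library gave differences of 0.15 to 0.34 for the Fcgr1 to Fcgr2b ratio, 0.0043 to 0.12 for Fcgr3 and 0.09 to 0.34 for Fcgr4. Each of the 6 genes had 508 reads or more in every library, and 3 pools a group limit what these comparisons can show.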
